A study of Lotus japonicus with 10 samples.

Results

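The CYP82 cytochrome P450s of Lotus japonicus were taken as every non-control probe of a focused Agilent array whose name begins with CYP82. They make up 60 of the array's 5716 probes and 30 of its 3148 names, with 2 probes for each name. A name joins the family and subfamily to a locus, so that the letter after CYP82 divides the 30 names into 17 of CYP82A, 2 of CYP82B, 10 of CYP82C and 1 of CYP82G. All leaves came from glasshouse-grown plants of the accession MG20. The 4 unelicited samples are labelled 0 h, and 3 samples each were kept detached in 10 mM glutathione (GSH), a thiol tripeptide used as an elicitor, for 3 h or 6 h. The series describes the samples as biological replicates and says no more about the plants they came from. No leaves detached and shaken without GSH were analysed here, so that detachment, submersion, time and GSH cannot be told apart in any comparison with unelicited leaves.

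Cytochrome P450s are haem enzymes that transfer oxygen to small molecules, and CYP82 is a plant family of the large A-type group, which makes many specialised and defence metabolites. In Arabidopsis, CYP82G1 forms a volatile homoterpene that leaves emit when herbivores feed, CYP82C2 acts on the route to an indole-derived cyanogenic defence compound, and CYP82C4 hydroxylates a coumarin that roots use in iron uptake. In tobacco, CYP82E4 demethylates nicotine. The sources used here give no enzyme activity for the individual Lotus names, which are therefore described by subfamily and locus.

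Levels are log2 of the scanner's processed signal minus the 75th percentile of the same array, so that 0 is the signal of a probe at that percentile and 1 unit is a doubling. They compare arrays for 1 probe and do not rank one probe against another. Slide and scan coincided. Slide 1 held unelicited replicates 1 and 2 only, and slide 2 held the other 8 arrays, so each GSH change is also given for slide 2 alone where that matters. Between 2644 and 3805 probes lay well above background per array. The unelicited arrays correlated at 0.973 within slide 1 and 0.978 within slide 2 across probes, and at 0.828 to 0.853 between the slides. The lists of leaf, root and flower markers met none of the array's names (0 matches), so the labelled tissue was not checked here. In RNA from whole leaves, fewer cells of a type and less RNA per cell cannot be told apart.

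Of the 60 CYP82 probes, 44 were tested, for 26 of the 30 names, each being well above background on all arrays of 1 group or more. The filter could favour a difference, since 20 of the 44 entered through the unelicited leaves alone and 5 through GSH-treated leaves alone, while 18 were above background on all 10 arrays. None of the 16 untested probes was well above background throughout a group. Of these, 6 were above background on no array, 9 only on unelicited arrays and 1 only on a GSH array. Both probes were untested for CYP82A_LjSGA_022942.1, CYP82C_chr1.LjT39K06.120.nd, CYP82C_chr1.LjT39K06.140.nd and CYP82C_LjSGA_106196.1. The first probe of CYP82A_LjSGA_022942.1 was above background on the unelicited arrays of slide 1 alone, at −1.89 and −1.64. On the unelicited arrays of slide 2 it read −6.18 and −6.43.

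CYP82 members moved in both directions after elicitation. At 3 h, 9 CYP82 probes were higher and 29 lower than in unelicited leaves, and 6 did not pass (limma, Benjamini-Hochberg adjusted p of 0.05 over all tested probes). The background was 37.5% of all tested probes higher and 36.7% lower, against 20.5% and 65.9% of the CYP82 probes. At 6 h, 13 were higher, 29 lower and 2 did not pass, against a background of 37.5% higher and 38.4% lower. The median log2 difference of the 44 probes was −1.97 at 3 h and −2.74 at 6 h, where that of all tested probes was −0.05 and −0.07. With probes that had no GSH spot above background placed at their lower bounds, the 6 h median was −2.52. Both comparisons share the unelicited arrays.

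These shares depend on how probes entered the test. All 20 probes that entered through unelicited leaves alone were lower at both times, and of the 5 that entered through GSH-treated leaves alone, 3 were higher at 3 h and 5 at 6 h. Among the 18 probes above background on every array, which leaves out members that fell to background, 6 were higher and 8 lower at 3 h, and 8 were higher and 8 lower at 6 h. All probes of the array were not divided by route of entry, so these counts have no background to be read against. With all 60 CYP82 probes fitted and no filter, 9 were higher and 34 lower at 3 h, and 16 higher and 32 lower at 6 h. In that fit 22.7% of all probes were higher and 23.2% lower at 3 h, and 27.8% and 23.4% at 6 h.

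No CYP82 probe changed sides. The same 9 probes were higher at both times and the same 29 lower at both, 4 passed as higher at 6 h alone, and 2 passed at neither time. Counted by name, 5 rose and 18 fell at 3 h, and 7 rose and 18 fell at 6 h. No name had probes called in opposite directions (0 of the 18 names with both probes tested). The pair of probes for a name differed in log2 change by a median of 0.403 at 3 h and 0.356 at 6 h, and by 2.11 and 2.97 at most. All 9 rises and 28 of the 29 falls at 3 h had groups that did not overlap. The exception was the first probe of CYP82A_LjSGA_125988.1. Of the 44 tested CYP82 probes, 9 (20.5%) were thus free of overlap upward and 28 downward. Over all tested probes the shares were 38.2% and 37.4%. At 6 h all 13 rises and all 29 falls were free of overlap. These were 29.5% and 65.9% of the tested CYP82 probes, against 36.7% and 37.5% of all tested probes. Under quantile normalization 13 probes were higher and 24 lower at 3 h. These were 29.5% and 54.5% of the CYP82 probes, against 33.6% and 36.3% of all tested probes.

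**Figure D1:**
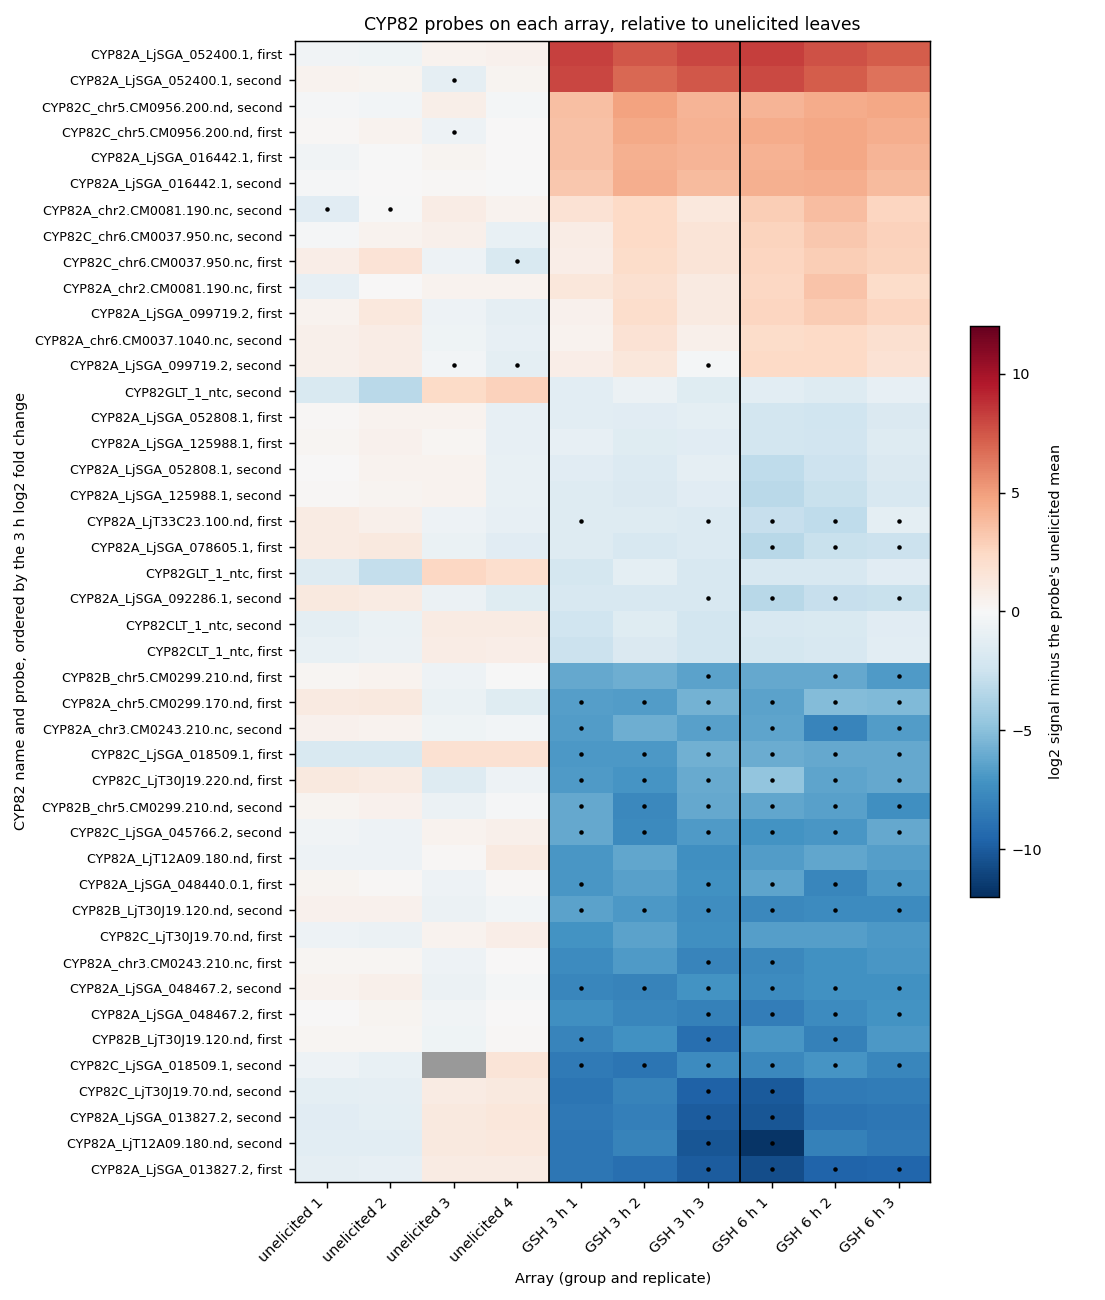
Log2 signal of the 44 tested CYP82 probes (rows, ordered by their 3 h change) on the 10 arrays (columns), each probe relative to its mean over the unelicited arrays, with a dot on spots not well above background and grey for the outlier spot. The 13 probes called higher at 6 h form the upper block and the steep falls the lower one, and several rows differ between unelicited arrays 1 and 2 (slide 1) and 3 and 4 (slide 2).

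The tested names are described below in 4 sets that were read off from the values, so the sets themselves carry no test. Of the rising names, 3 were already far higher at 3 h and 4 rose by less, and of the falling names, 12 fell steeply and 6 modestly. CYP82GLT_1_ntc alone was called at neither time.

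The largest rise belonged to CYP82A_LjSGA_052400.1, a CYP82A paralog that was dim in unelicited leaves and lay far above the 75th percentile after GSH. Its first probe read −3.19, −3.30, −2.42 and −2.31 on unelicited arrays 1 to 4, then 5.40, 4.62 and 5.21 at 3 h and 5.50, 4.86 and 4.46 at 6 h. The unelicited arrays were low throughout and the GSH arrays lay far above them at both times, with no overlap. The mean was −2.80 ± 0.51 (SD, n = 4) before and 5.07 ± 0.41 (SD, n = 3) at 3 h, a log2 change of 7.88 (SE 0.38, limma adjusted p = 7.32e-08). At 6 h the mean was 4.94 ± 0.52 (SD, n = 3), a change of 7.74 (SE 0.38, limma adjusted p = 7.10e-08). The second probe, above background on 3 of 4 unelicited arrays, rose by 7.43 and 7.21.

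CYP82A_LjSGA_016442.1, another CYP82A paralog, was already measured on every unelicited array. Its first probe read 0.53, 0.90, 1.28 and 0.98 without GSH, 4.46, 5.23 and 4.96 at 3 h, and 5.13, 5.54 and 5.04 at 6 h. Every GSH array was higher than every unelicited one. The change was 3.96 (SE 0.29, limma adjusted p = 1.02e-06) at 3 h and 4.31 (adjusted p = 5.11e-07) at 6 h, and the second probe gave 3.80 and 4.12. CYP82C_chr5.CM0956.200.nd was the CYP82C member of the same set. Its second probe read −3.91, −4.06, −3.09 and −4.03 in unelicited leaves, −0.18, 1.01 and 0.33 at 3 h, and 0.30, 0.72 and 0.88 at 6 h. Again the low arrays were the unelicited ones and the groups did not overlap. The change was 4.16 (SE 0.36, limma adjusted p = 3.26e-06) at 3 h and 4.40 (adjusted p = 2.01e-06) at 6 h, with 4.09 and 4.49 for the first probe. On slide 2 alone the 6 probes of these 3 names rose by 3.75 to 7.79 at 3 h and 4.07 to 7.58 at 6 h.

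The 4 names that rose less were CYP82A_chr2.CM0081.190.nc, CYP82A_LjSGA_099719.2, CYP82A_chr6.CM0037.1040.nc and CYP82C_chr6.CM0037.950.nc. All 7 of their tested probes passed at 6 h, with log2 changes of 2.17 to 3.07, and 3 of the 7 passed at 3 h, where the differences were 0.66 to 1.79. On slide 2 alone, 6 of the 7 passed at 3 h, with differences of 0.98 to 2.73. Of the 7, 4 passed at 6 h in every setting tried and 0 at 3 h. Scaling on the probes detected on all arrays, which moved the median of all tested probes to −1.11 at 3 h and −1.13 at 6 h, ended 3 of the 6 h calls. These were the first probe of CYP82C_chr6.CM0037.950.nc (1.71, limma adjusted p = 0.0596), the second of CYP82A_chr6.CM0037.1040.nc (1.12, adjusted p = 0.0824) and the second of CYP82A_LjSGA_099719.2 (1.11, adjusted p = 0.105). The last also lost its 6 h call with normexp background correction, at 0.92 (adjusted p = 0.171).

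CYP82A_chr2.CM0081.190.nc was dim in unelicited leaves, its second probe being above background on 2 of 4 arrays there. That probe read −6.05, −4.73, −3.83 and −4.25 without GSH, −3.0, −2.31 and −3.45 at 3 h, and −1.78, −1.0 and −2.15 at 6 h. The 3 groups stood in that order with no overlap, and the lowest unelicited array was on slide 1. The change was 1.79 (SE 0.53, limma adjusted p = 0.0111) at 3 h and 3.07 (adjusted p = 0.000393) at 6 h, and on slide 2 alone 1.12 and 2.40. Its first probe rose by 1.45 and 2.72, and on slide 2 alone its 3 h difference of 0.98 did not pass (adjusted p = 0.0565). Neither probe kept its 3 h call with normexp (0.99 and 1.03, limma adjusted p = 0.0841 and 0.0896) or with scaling on detected probes (0.38 and 0.72, adjusted p = 0.429 and 0.206). Both also lost it with slide as a block and without the second 3 h array, where the differences were 1.22 and 1.49 (adjusted p = 0.0610 and 0.0512).

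CYP82C_chr6.CM0037.950.nc gave on its second probe −2.37, −1.75, −1.61 and −3.06 in unelicited leaves, −1.26, 0.19 and −0.69 at 3 h, and 0.43, 1.08 and 0.58 at 6 h. The 3 h arrays lay between the other groups without touching either. The change was 1.61 (SE 0.44, limma adjusted p = 0.00739) at 3 h and 2.89 (adjusted p = 0.000163) at 6 h. The 3 h call was lost with scaling on detected probes, at 0.54 (limma adjusted p = 0.291), and with spike-in scaling on slide 2, at 1.33 (adjusted p = 0.0548). Its first probe differed by 1.52 at 3 h, which did not pass (adjusted p = 0.0742), and rose by 2.77 at 6 h. On slide 2 alone the 3 h difference of that first probe was 2.73 and passed (limma adjusted p = 0.000647). CYP82A_chr6.CM0037.1040.nc, from the same contig, had 1 tested probe. It read −2.59, −2.25, −3.73 and −4.17 in unelicited leaves, −2.77, −1.44 and −2.54 at 3 h, and −1.0, −0.75 and −1.26 at 6 h. The 3 h arrays overlapped the unelicited ones, while all 6 h arrays were above both. Its 6 h change was 2.18 (SE 0.50, limma adjusted p = 0.00268), and its 3 h difference of 0.93 did not pass and turned to −0.14 when arrays were scaled on the probes detected on all of them. On slide 2 alone that 3 h difference was 1.70 and passed (limma adjusted p = 0.00472). CYP82A_LjSGA_099719.2 rose at 6 h by 2.74 and 2.17 on its first and second probes. Its 3 h differences of 1.21 and 0.66 did not pass, and the second turned to −0.41 with scaling on detected probes. On slide 2 alone they were 2.05 and 1.42, and both passed (limma adjusted p = 0.00237 and 0.0266).

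**Figure D2:**
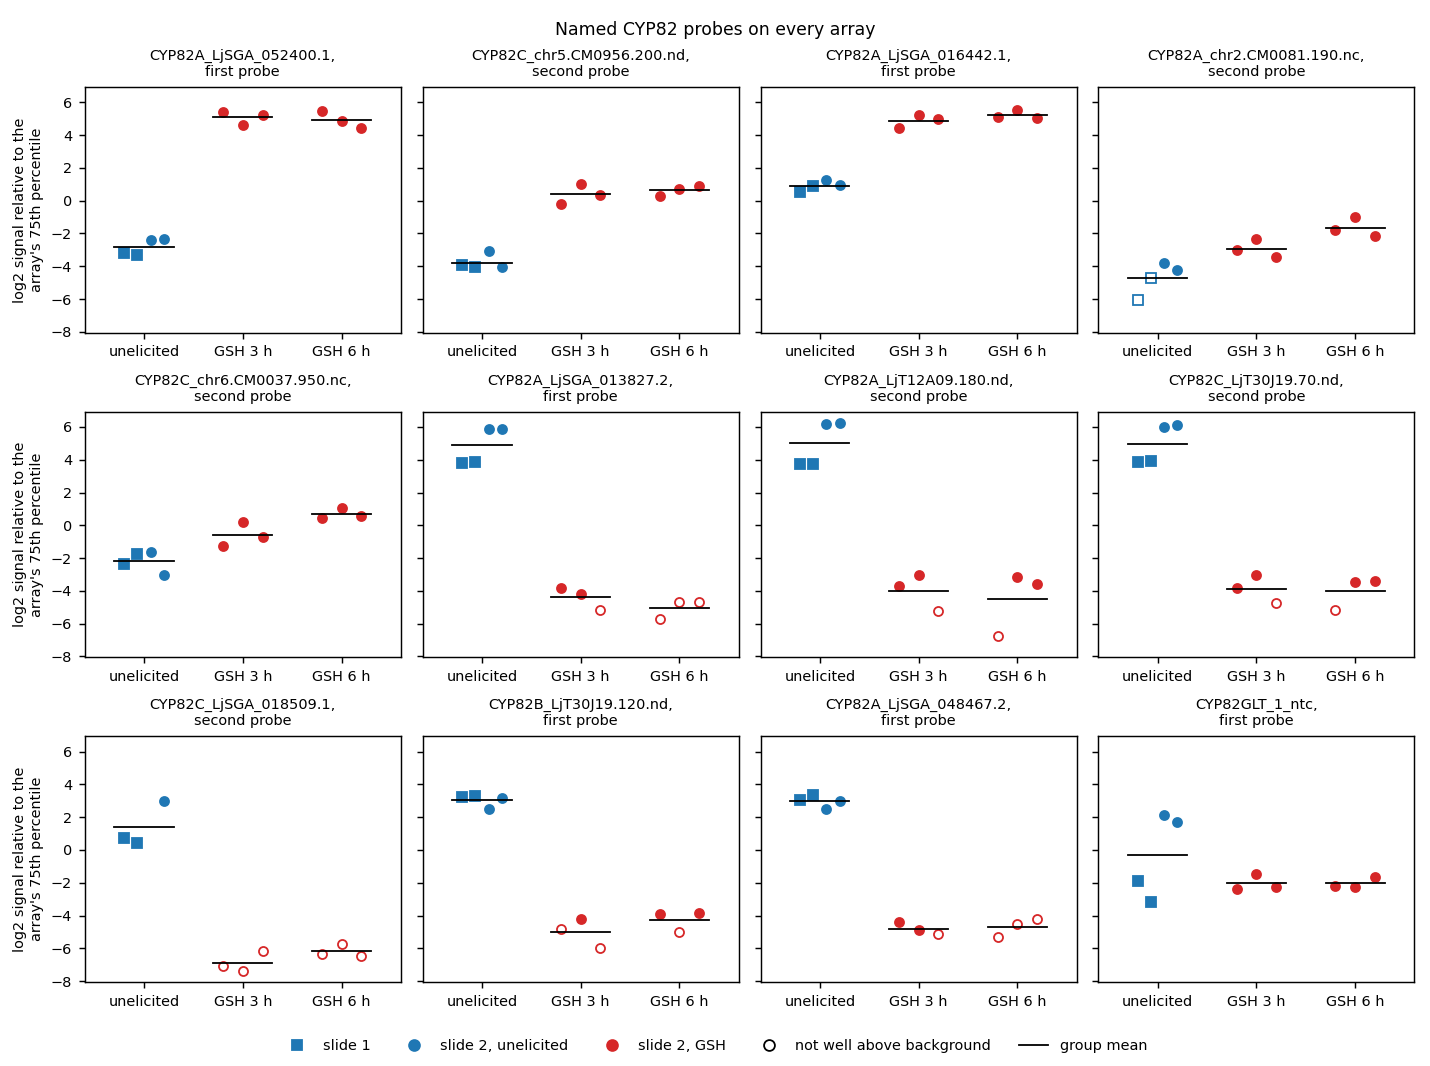
Log2 signal relative to the 75th percentile of the array for 12 named CYP82 probes, with each point an array, lines for group means, squares for slide 1, circles for slide 2 and open symbols for spots not well above background. In CYP82A_LjSGA_052400.1 every GSH array lies above every unelicited array, in CYP82A_LjSGA_013827.2 every GSH array lies far below, and in CYP82GLT_1_ntc the unelicited arrays part by slide.

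The steep falls covered 12 names, 6 of CYP82A, both of CYP82B and 4 of CYP82C, with 20 tested probes. All 20 passed at both times, with fitted log2 differences of −9.26 to −6.14 at 3 h and −9.90 to −5.62 at 6 h. All 80 of their unelicited spots were above background, and after GSH 23 of 60 spots at 3 h and 17 of 60 at 6 h were. Only 2 of the 20 probes were above background on every array, so the other fitted differences rest in part on spots not above background. For 8 probes no 3 h spot was above background, so these had only lower bounds, of 20.0-fold to 65.2-fold. At 6 h this held for 12 probes, at 15.7-fold to 576-fold. A bound sets the unelicited mean against the higher of the probe's own signal and the lowest signal well above background on each GSH array. On slide 2 alone the fitted differences of the 20 probes were −10.28 to −5.25 at 3 h and −10.92 to −4.52 at 6 h.

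CYP82A_LjSGA_013827.2 had the largest fitted fall at 3 h. Its first probe read 3.83, 3.89, 5.89 and 5.90 in unelicited leaves, −3.83, −4.19 and −5.14 at 3 h, and −5.72, −4.70 and −4.65 at 6 h. The unelicited arrays of slide 2 were higher than those of slide 1, with means of 5.89 and 3.86, and all GSH arrays were far below both. The mean went from 4.88 ± 1.18 (SD, n = 4) to −4.39 ± 0.68 (SD, n = 3) at 3 h, a log2 change of −9.26 (SE 0.62, limma adjusted p = 4.84e-07). At 6 h no spot was well above background, and the signal was at least 576-fold lower over all 4 unelicited arrays (limma adjusted p = 2.96e-07). That bound would be smaller against slide 1 alone. The second probe changed by −8.91 at 3 h and −9.27 at 6 h.

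CYP82A_LjT12A09.180.nd kept a measurable signal after GSH on its first probe, which was above background on all 10 arrays. That probe read 4.03, 3.99, 4.73 and 5.63 in unelicited leaves, −2.43, −1.64 and −2.75 at 3 h, and −2.14, −1.62 and −2.03 at 6 h. The GSH arrays lay together and well below the unelicited ones. The change was −6.87 (SE 0.44, limma adjusted p = 3.81e-07) at 3 h and −6.52 (adjusted p = 4.85e-07) at 6 h. Its second probe fell further, with log2 changes of −8.98 and −9.50 and a wider spread at 6 h, where it read −6.76, −3.15 and −3.59. CYP82C_LjT30J19.70.nd was the other steeply falling name with a probe above background on every array. That first probe read 4.19, 4.10, 5.19 and 5.58 in unelicited leaves, −2.41, −1.70 and −2.64 at 3 h, and −1.83, −1.82 and −2.12 at 6 h. As in the preceding gene, the GSH arrays formed a low group of their own. The change was −7.01 (SE 0.41, limma adjusted p = 2.24e-07) at 3 h and −6.69 (adjusted p = 2.67e-07) at 6 h. The second probe changed by −8.83 and −8.97.

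CYP82B_LjT30J19.120.nd, a CYP82B gene from the same clone, read on its first probe 3.26, 3.31, 2.52 and 3.18 in unelicited leaves, −4.85, −4.22 and −5.99 at 3 h, and −3.93, −5.02 and −3.82 at 6 h. Unlike in the preceding genes, its unelicited arrays on slide 2 were not higher than those on slide 1, and the GSH arrays were far below all of them. The change was −8.09 (SE 0.46, limma adjusted p = 1.92e-07) at 3 h and −7.32 (adjusted p = 3.17e-07) at 6 h. No GSH spot of its second probe was above background, and the signal there was at least 57.1-fold lower at 3 h and at least 44.9-fold lower at 6 h. CYP82A_LjSGA_048467.2 read on its first probe 3.06, 3.34, 2.51 and 2.97 in unelicited leaves, −4.40, −4.86 and −5.15 at 3 h, and −5.32, −4.54 and −4.24 at 6 h. The GSH arrays of both times shared 1 low range. The change was −7.77 (SE 0.34, limma adjusted p = 4.92e-08) at 3 h, and at 6 h, with no spot above background, the signal was at least 153-fold lower (adjusted p = 4.37e-08).

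CYP82C_LjSGA_018509.1 was not well above background on any GSH array for either probe. Its second probe read 0.74, 0.45 and 2.96 on unelicited arrays 1, 2 and 4, the spot on array 3 having been left out as a scanner outlier. The GSH values were −7.07, −7.38 and −6.19 at 3 h and −6.37, −5.71 and −6.45 at 6 h. This gave at least 65.2-fold lower signal at 3 h (limma adjusted p = 3.08e-06) and at least 51.3-fold at 6 h (adjusted p = 5.12e-06), and for the first probe at least 25.2-fold and 19.8-fold. The unelicited mean of the first probe was −1.82 on slide 1 and 1.84 on slide 2, so its bounds would be smaller against slide 1 alone.

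The other 6 steeply falling names comprise 3 with some GSH spots above background and 3 with bounds only. CYP82A_chr3.CM0243.210.nc had a fitted change of −7.42 at 3 h and −7.31 at 6 h on its first probe, with 2 of 3 spots above background each time. Its second probe changed by −6.38 at 3 h, with 1 of 3 spots above background, and was at least 55.7-fold lower at 6 h. CYP82B_chr5.CM0299.210.nd, the other CYP82B gene, changed by −6.14 and −6.33 on its first probe, with 2 of 3 and 1 of 3 spots above background. Its second probe was at least 49.8-fold and 39.2-fold lower. CYP82A_LjSGA_048440.0.1 changed by −6.90 at 3 h, with 1 of 3 spots above background, and was at least 60.0-fold lower at 6 h. The remaining 3 names had no GSH spot above background on their tested probe, so only bounds are known. These were at least 40.5-fold and 31.8-fold for CYP82C_LjSGA_045766.2, at least 24.2-fold and 19.0-fold for CYP82C_LjT30J19.220.nd, and at least 20.0-fold and 15.7-fold for CYP82A_chr5.CM0299.170.nd, at 3 h and 6 h. The unelicited means of CYP82C_LjT30J19.220.nd were 1.02 on slide 1 and −1.11 on slide 2, and those of CYP82A_chr5.CM0299.170.nd 0.79 and −1.43. Their bounds would be smaller against slide 2 alone. The untested first probe of CYP82C_LjSGA_045766.2 went the other way, with a 6 h mean of −4.71 against −7.08 in unelicited leaves. It was above background on 1 array only, at 6 h.

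The modest falls covered 6 names and 9 tested probes, which passed at both times, with fitted log2 changes of −2.20 to −1.23 at 3 h and −2.90 to −1.71 at 6 h. At 6 h, 3 of the 9 had no spot above background, and their lower bounds were 7.07-fold, 5.07-fold and 1.97-fold. In every setting tried 3 of the 9 passed at 3 h and 5 at 6 h, where all 20 probes of the steep falls passed at both times. The sets were split by the size of the 3 h change, so that contrast was largely built in and carries no test. Of the steep falls 18 of 20 probes entered the test through unelicited leaves alone, and of the modest falls 2 of 9. On slide 2 alone 4 of the 9 passed at 3 h (−3.01 to −0.62) and all 9 at 6 h (−2.68 to −1.51). Of the 6 names, 5 were CYP82A, and the sixth, CYP82CLT_1_ntc, is a CYP82C name without a locus. Its first probe read 0.03, 0.25, 1.81 and 1.72 in unelicited leaves, −1.63, −0.82 and −1.29 at 3 h, and −1.13, −0.99 and −0.33 at 6 h. All GSH arrays were below all unelicited ones, of which the pair on slide 2 was higher. The change was −2.20 (SE 0.49, limma adjusted p = 0.00214) at 3 h and −1.77 (adjusted p = 0.00728) at 6 h, and on slide 2 alone −3.01 and −2.58. Its second probe changed by −1.99 and −1.71. That probe lost its 6 h call with quantile normalization (limma adjusted p = 0.0673), without 6 h replicate 1 (adjusted p = 0.0572) and without 6 h replicate 2 (adjusted p = 0.053).

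CYP82A_LjSGA_052808.1 read on its second probe 1.68, 2.08, 2.00 and 0.69 in unelicited leaves, 0.21, −0.01 and 0.58 at 3 h, and −1.45, −0.86 and −0.12 at 6 h. The 3 h arrays lay just under the lowest unelicited array, and the 6 h arrays lay lower still. The change was −1.36 (SE 0.42, limma adjusted p = 0.0139) at 3 h and −2.42 (adjusted p = 0.000404) at 6 h. On slide 2 alone its 3 h difference of −1.09 did not pass (adjusted p = 0.0671). The first probe of this name changed by −1.23 and −2.09. That probe lost its 3 h call with normexp (−0.51, limma adjusted p = 0.330) and with quantile normalization (−0.87, adjusted p = 0.0618). CYP82A_LjSGA_078605.1 showed a slide difference in the opposite sense to CYP82CLT_1_ntc. Its first probe read −0.38, −0.20, −2.20 and −2.73 in unelicited leaves, −2.93, −3.32 and −3.01 at 3 h, and −4.68, −4.09 and −3.94 at 6 h. The unelicited arrays of slide 2 were the lower pair and lay close to the 3 h arrays, without overlap. The change was −1.71 (SE 0.59, limma adjusted p = 0.0232) at 3 h, and within slide 2 the 3 h difference of −0.62 did not pass (adjusted p = 0.101). At 6 h no spot was above background, and the signal was at least 7.07-fold lower over all 4 unelicited arrays. Against the slide 2 arrays alone the fitted 6 h change was −1.77, smaller than that bound. With normexp neither call was kept (−0.45 and −1.24, limma adjusted p = 0.570 and 0.0946).

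CYP82A_LjSGA_092286.1 was likewise below background on all 6 h arrays, with a bound of at least 5.07-fold over all unelicited arrays, and changed by −1.94 at 3 h. Within slide 2 the fitted changes were −0.87 and −1.83, the second again smaller than the bound. With normexp neither call was kept (−0.25 and −0.96, limma adjusted p = 0.746 and 0.168). The first probe of CYP82A_LjT33C23.100.nd, lower by 1.60 on the log2 scale at 3 h in the fit over all arrays, had a 3 h difference of 0.40 (limma adjusted p = 0.583) with normexp background correction. At 6 h it was at least 1.97-fold lower over all 4 unelicited arrays, a call that normexp also ended, at −0.32 (adjusted p = 0.640). Its unelicited means were −2.53 on slide 1 and −4.10 on slide 2, so that bound would be smaller against slide 2 alone. Within slide 2 the fitted changes were −0.82 at 3 h (limma adjusted p = 0.168) and −1.51 at 6 h (adjusted p = 0.0226).

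CYP82GLT_1_ntc, the only CYP82G name, passed at neither time over all 10 arrays, and its unelicited arrays disagreed by slide. Its first probe read −1.89 and −3.20 on slide 1 and 2.12 and 1.69 on slide 2 in unelicited leaves, then −2.40, −1.46 and −2.26 at 3 h and −2.22, −2.26 and −1.64 at 6 h. The GSH arrays therefore lay close to the unelicited arrays of slide 1 and below those of slide 2, the slide they were on. The difference was −1.72 (SE 1.14, limma adjusted p = 0.190) at 3 h and −1.72 (adjusted p = 0.188) at 6 h. Within slide 2 it was −3.94 (limma adjusted p = 1.31e-05) and −3.95 (adjusted p = 1.22e-05). The second probe differed by −1.14 and −1.28 over all arrays, without passing, and by −3.67 and −3.80 within slide 2.

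Other CYP82 names also differed between the unelicited arrays of the slides. Slide 2 minus slide 1 had a median of −0.46 and a range of −2.41 to 5.05 over the 44 tested CYP82 probes, with a median of −0.01 over all tested probes. Fitted on slide 2 alone, 12 CYP82 probes were higher and 26 lower at 3 h, and 13 higher and 31 lower at 6 h, among them all 20 probes of the steep falls and all 6 of the large rises at both times. These were 27.3% and 59.1% of the CYP82 probes at 3 h, against 38.9% and 39.2% of all tested probes. At 6 h they were 29.5% and 70.5%, against 38.6% and 40.5%. Whether the slides hold leaves grown or harvested apart was not tested.

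**Figure D3:**
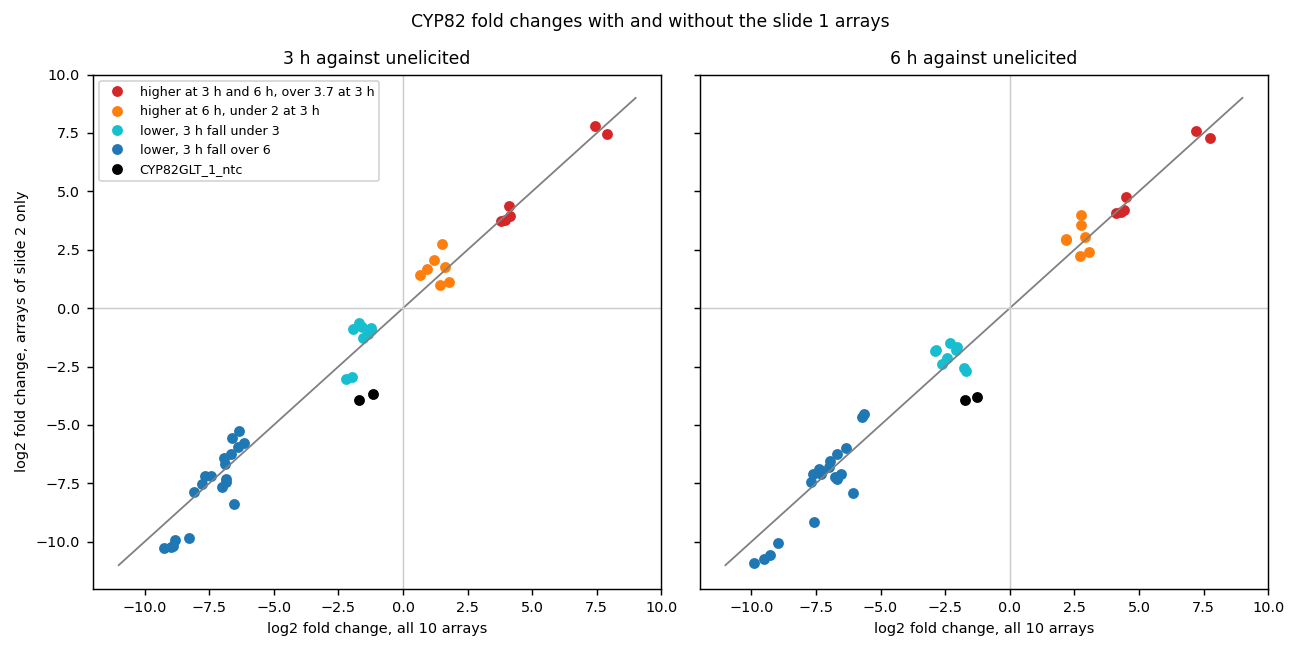
Log2 change of each tested CYP82 probe from unelicited leaves in the fit over all 10 arrays (horizontal) and on the arrays of slide 2 alone (vertical), at 3 h (left) and 6 h (right), coloured by set, with the line of equality. CYP82GLT_1_ntc lies below the line, its first probe going from −1.72 to −3.94 at 3 h, while the large rises stay at 3.75 to 7.79.

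Between 3 h and 6 h of GSH no CYP82 probe passed (0 of 44 in limma, with 9 at an unadjusted p under 0.05, 6 of them higher at 6 h, and a lowest adjusted p of 0.151). Over all tested probes, 3.35% were higher and 1.99% lower at 6 h. The median difference of the CYP82 probes was 0.11. The 7 probes of the 4 names that rose less were higher at 6 h than at 3 h by 1.24 to 1.52, a pattern that helped to define the set and is given as a description. Over all 44 CYP82 probes, 7 were free of overlap upward and 7 downward between the times, 15.9% each, where 18.4% and 20.0% of all tested probes were. Of these 7 probes, 6 had an unadjusted p under 0.05, and the adjusted values reached 0.384. With slide as a block 3 CYP82 probes passed as higher at 6 h and 2 as lower, or 6.82% and 4.55%, where 10.9% and 9.04% of all tested probes did. These were the second probe of CYP82A_chr6.CM0037.1040.nc at 1.24 (limma adjusted p = 0.0358), both probes of CYP82A_LjSGA_099719.2 at 1.52 and 1.51, the first probe of CYP82A_LjSGA_078605.1 at −1.15 and the second of CYP82A_LjSGA_092286.1 at −0.96.

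**Figure D4:**
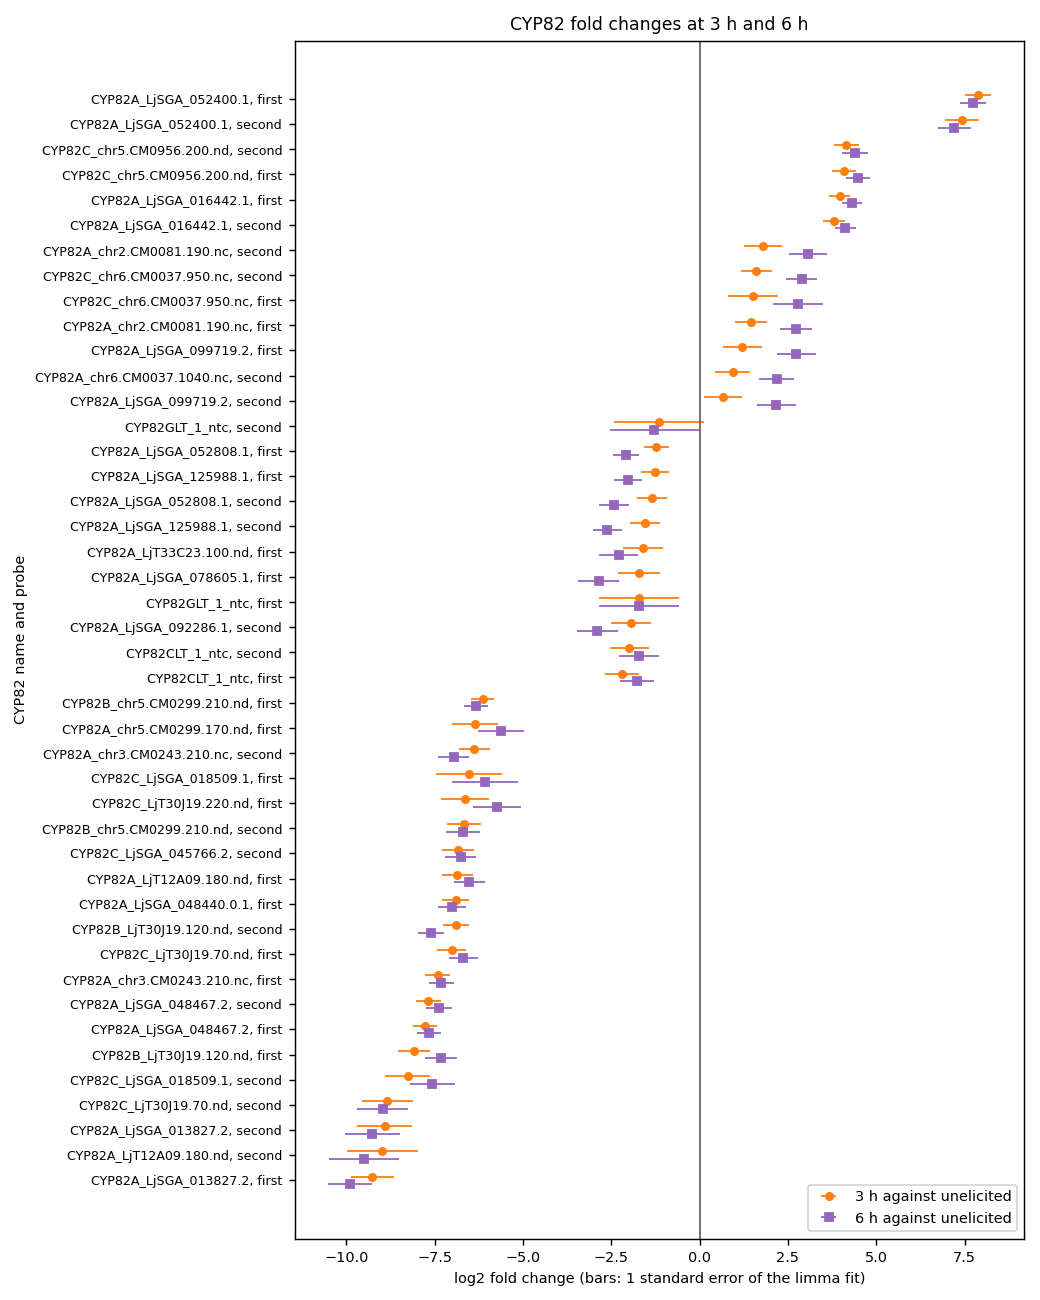
Fitted log2 change from unelicited leaves at 3 h (circles) and 6 h (squares) for each tested CYP82 probe (rows), with bars of 1 standard error of the limma fit; values of probes with no GSH spot above background depend on the noise and are bounded in the text. In this fit the steep falls lie between −9.26 and −6.14 at 3 h, apart from the modest falls at −2.20 to −1.23, a gap that normexp background correction did not keep. Both times share the unelicited arrays.

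Rising and falling paralogs occurred in the same subfamilies. In CYP82A, 6 of 26 tested probes rose and 17 fell at 3 h, and 9 rose and 17 fell at 6 h. In CYP82C, 3 of 12 rose and 8 fell at 3 h, and 4 rose and 8 fell at 6 h. All 4 CYP82B probes fell at both times, with median changes of −6.79 and −7.01, and neither of the 2 CYP82G probes passed.

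Tested names from 1 clone or contig belonged to the same set, in the few cases that could be compared. Among the 23 clones or contigs, 3 carried more than 1 tested name. Whether that exceeds chance was not tested, and 12 of the 26 tested names were steep falls. LjT30J19 held CYP82C_LjT30J19.70.nd, CYP82B_LjT30J19.120.nd and CYP82C_LjT30J19.220.nd, all steep falls. Their first probes differed in the unelicited slide 2 minus slide 1 value, at 1.24, −0.44 and −2.13 in that order. The contig chr5.CM0299 held CYP82A_chr5.CM0299.170.nd and CYP82B_chr5.CM0299.210.nd, both steep falls as well. The contig chr6.CM0037 held CYP82C_chr6.CM0037.950.nc and CYP82A_chr6.CM0037.1040.nc, which both rose at 6 h. No further position is given for these loci in the sources used here.

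Some names had nearly the same profile. Centred over the 10 arrays, 7 pairs of probes from different names, covering 6 pairs of names, never differed by more than 0.5, out of 928 pairs compared. The closest were CYP82A_LjSGA_052808.1 and CYP82A_LjSGA_125988.1, whose profiles differed by 0.178 at most. The others were CYP82A_LjSGA_078605.1 with CYP82A_LjSGA_092286.1 (0.310), CYP82A_LjSGA_013827.2 with CYP82C_LjT30J19.70.nd (0.338), CYP82A_LjT12A09.180.nd with CYP82C_LjT30J19.70.nd (0.381), CYP82A_chr6.CM0037.1040.nc with CYP82A_LjSGA_099719.2 (0.395), and CYP82A_LjSGA_016442.1 with CYP82C_chr5.CM0956.200.nd (0.443). The pair of probes for 1 name differed by a median of 1.03, and pairs from different names by a median of 4.57. Whether such names share a transcript or cross-hybridise was not tested, since probe sequences were not used here, and the counts by name may hold duplicates.

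Other A-type P450s of the array also split. At 3 h, 42 of 162 tested probes of the other A-type families rose and 81 fell, with a median of −1.43, and at 6 h 48 rose and 85 fell, with a median of −1.47. The CYP71, CYP76 and CYP83 families, which include many enzymes of specialised metabolism, had 12 of 86 probes higher and 48 lower at 3 h, and 17 higher and 47 lower at 6 h. The CYP93 family, whose members include the isoflavone synthases of legumes, had 8 of 10 higher and 0 lower at 3 h, with a median of 2.94, and 8 higher and 2 lower at 6 h. The CYP81 family, which includes isoflavone hydroxylases, had 4 of 6 higher and 2 lower at both times, with medians of 5.03 and 4.89. No test of the difference between CYP82 and these families was made.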

How the data were processed

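Leaf RNA was measured on one-colour (Cy3) Agilent arrays, 1 per sample. Per the file headers, the deposited intensity is the processed signal of Agilent Feature Extraction 10.7.3.1, background-subtracted and spatially detrended but not normalized between arrays. Here its log2 was set relative to the 75th percentile of the array's non-control probes. Spots that the scanner software marked as outliers were dropped, and none was saturated. The test took the 3310 probes that were well above background throughout 1 group or more. Groups came from the sample titles and were fitted over all 10 arrays with limma 3.58.1 in R 4.3.3 (lmFit, eBayes), two-sided, with Benjamini-Hochberg adjustment at 0.05. The array count limits precision.

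The members, the gene lists and the sets of responses were chosen with earlier results of these data known. Described array by array were the 5 largest rises and 5 largest falls per comparison with unelicited leaves (at most 1 probe per name, without overlap), and the brightest member that never passed. CYP82A_LjSGA_052808.1, CYP82A_LjSGA_078605.1, CYP82A_chr6.CM0037.1040.nc and CYP82CLT_1_ntc, and the first probes of CYP82A_LjT12A09.180.nd and CYP82C_LjT30J19.70.nd, were added after their values were seen. Alternatives covered background correction, scaling, the dim-probe filter, variance model, slide, replicate number, probes per name and each array left out. The code was tested on simulated data.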

Additional observations from a re-analysis of the deposited data

Results flagged for a closer look

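In 4 of the 44 CYP82 probes, unelicited replicate 3 stood apart from the other unelicited arrays, with a gap to its nearest neighbour that took up more of the group's range than Dixon's critical value for 4 samples. The ratio of gap to range was 0.847 for the first probe of CYP82A_LjSGA_048440.0.1, 0.899 for the second probe of CYP82A_LjSGA_052400.1, 0.838 for the first probe of CYP82B_LjT30J19.120.nd and 0.84 for the second probe of CYP82C_chr5.CM0956.200.nd. The array was the lowest in the first 3 and the highest in the last. Chance alone flags about 5% of groups, and the probes of 1 array are not independent of each other. Each of these probes passed in the same direction at 3 h and at 6 h without that array.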

How the results depend on the processing

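Across the 20 alternative settings, 29 of the 44 tested CYP82 probes passed in the same direction in every setting at 3 h (6 higher, 23 lower) and 35 at 6 h (10 higher, 25 lower). The share of all tested probes that did so was not computed. The 3 h counts of 9 higher and 29 lower became 7 and 24 with normexp, 6 and 30 when scaled on probes detected on all arrays, and 13 and 24 with quantile normalization. The background moved too. Of all tested probes, 30.2% were higher and 17.5% lower with normexp. The shares were 24.1% and 50.3% when scaled on detected probes, and 33.6% and 36.3% with quantile normalization. That detected-probe scaling moved the median difference of all tested probes to −1.11 at 3 h and −1.13 at 6 h. With each array left out in turn, the counts were 7 to 12 higher and 25 to 31 lower at 3 h, 13 to 13 higher and 28 to 31 lower at 6 h, and 0 to 0 in each direction between the times. Over all tested probes the shares were then 34% to 37.1% higher and 32.8% to 37.8% lower at 3 h. At 6 h they were 34% to 37.2% and 35.7% to 39.1%. With 1 probe per name, 5 rose and 18 fell at 3 h, and 7 rose and 18 fell at 6 h, since fewer probes were tested. In that fit 37.5% of all tested probes were higher and 36.2% lower at 3 h, and 37% and 37.9% at 6 h. Between the times, where 0 passed over all arrays, spike-in scaling on slide 2 gave 7 lower (15.9%, against 18.6% of all probes tested). The slide block gave 3 higher and 2 lower (10.9% and 9.04% of all probes), and slide 2 alone gave 1 higher and 1 lower (8.21% and 6.56% of all probes). The cause was not tested. The first probe of CYP82A_LjT33C23.100.nd reversed at 3 h with normexp, to 0.40, and the cause was not tested. With a replicate block the counts stayed at 9 higher and 29 lower at 3 h, 13 and 29 at 6 h, and 0 and 0 between the times. Same-numbered arrays deviated with correlations of only −0.0417 to 0.0574, so the numbers were not taken as pairs, although 6 of 6 arrays correlated best with their own number between 3 h and unelicited leaves, against 4 of 6 at 6 h and 0 of 6 between the times. Signal near background leaves only lower bounds for 8 of the 20 steeply falling probes at 3 h and 12 at 6 h.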
